A study of Mus musculus with 8 samples.

Results

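The genes described here carry glucose into cells and break it down by glycolysis. They are 10 genes of the 30406 whose identifiers the feature lists of all libraries share. Slc2a1 and Slc2a4 encode the glucose transporters GLUT1 and GLUT4. Hk1 and Hk2 encode hexokinases, Pfkfb3 the enzyme that makes and removes the activator of phosphofructokinase, and Aldoa, Gapdh, Pgk1 and Pkm encode aldolase, glyceraldehyde phosphate dehydrogenase, phosphoglycerate kinase and pyruvate kinase. Ldha encodes a subunit of lactate dehydrogenase. The members were chosen by symbol and matched between the feature lists by gene identifier. All 10 were found. Aldoa has another identifier in the lists, which received 3 UMIs in all libraries together and is not counted as a member.

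Endothelial cells sorted from male ROSA26-eYFP+/+ Cdh5-CreERT2+ mice were profiled by 3′ single-cell RNA sequencing. In these animals tamoxifen activates a Cre recombinase driven by the endothelial Cdh5 promoter, which switches on the reporter YFP. All mice, controls included, received a tamoxifen diet for 2 weeks, starting at an age of 6 weeks. At 8 weeks of age they were put on normal chow with 5.8% fat or on a high fat diet with 60% fat, which lasted 12 to 13 weeks. The mesentery and the epididymal fat pads, called adipose below, were taken from both diets, which gives 4 groups, and tissue of 6 mice was pooled per library. Each group has 2 libraries from repeats of the whole experiment, called runs A and B, so that n counts pools of mice and not mice. Tissues were digested in the presence of actinomycin D, a transcription inhibitor, and about 5000 YFP-positive cells per library were the target. Whole tissues were digested, so arteries were not dissected. The gate used in the sort is not stated in what was used here.

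Total UMIs per library were 3461360 to 6714473 in run A and 18829960 to 36779289 in run B. Of 27944 barcodes, 23113 were used, and 17382 of those lay in clusters counted as endothelial by markers such as Cdh5 and Pecam1. They include 262 proliferating-like cells, of which 121 fell into macrophage-like clusters at a higher clustering resolution. A further 2241 cells had endothelial markers together with those of another cell type and were kept apart. Clusters with 2793 cells were arterial-like, 5453 capillary-like, 3142 venous-like and 2413 lymphatic-like by marker genes. These names were rebuilt here and may differ from the study's. The 10 members and the pathway genes below were kept out of the genes used for clustering. Capillary-like cells of run A were few, with 36 to 156 cells and 87290 to 272115 UMIs per library. Summed immediate early genes (Fos, Fosb, Jun, Junb, Egr1, Atf3, Ier2 and Ier3), whose messages appear soon after a stimulus, were at 6415.7 to 18971.2 CPM (counts per 1000000 UMIs) in the 4 classes in run A and at 467.3 to 674.2 CPM in run B. Adipocyte-like, fibroblast-like and immune-like cells were also among the cells that passed the sort.

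Glycolysis splits glucose into pyruvate in the cytosol and yields ATP without oxygen, and lactate dehydrogenase turns pyruvate into lactate and renews the NAD that the pathway needs. Endothelial cells are known to draw much of their ATP from glycolysis, and Pfkfb3 is known as a regulator of that flux during vessel sprouting. GLUT1 is the basal transporter of many cells, whereas GLUT4 is the insulin-responsive transporter of adipocytes and muscle. Many genes of the pathway are known targets of the hypoxia-inducible factors, which bind the core letters ACGTG or GCGTG.

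The promoters of 4 members are printed. Slc2a1 and Ldha act at the ends of the pathway, Pfkfb3 bears on its control, and Pgk1 is a step in between. Where a gene has 2 start sites, the one with more matches is shown. They come from RefSeq on GRCm38.p6, read 5′ to 3′ on the strand of the gene, from the 250 bases before the start site with annotated exons left out. Capitals mark each ACGTG or GCGTG found on either strand within the printed bases. The letters CACGTG hold ACGTG on both strands and count as 2 overlapping matches.
Slc2a1, chr4:119108495-119108710, plus strand: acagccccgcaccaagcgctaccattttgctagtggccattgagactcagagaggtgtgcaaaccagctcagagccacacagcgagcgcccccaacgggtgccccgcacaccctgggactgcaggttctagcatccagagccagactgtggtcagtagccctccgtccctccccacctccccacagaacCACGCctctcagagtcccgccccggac
Pfkfb3, second of 2 start sites, chr2:11502102-11502340, minus strand: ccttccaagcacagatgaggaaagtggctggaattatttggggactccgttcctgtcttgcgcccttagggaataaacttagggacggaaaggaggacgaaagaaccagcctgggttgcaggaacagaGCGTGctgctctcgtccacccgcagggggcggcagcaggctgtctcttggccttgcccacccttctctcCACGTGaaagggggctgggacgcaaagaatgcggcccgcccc
Pgk1, chrX:106186850-106187099, plus strand: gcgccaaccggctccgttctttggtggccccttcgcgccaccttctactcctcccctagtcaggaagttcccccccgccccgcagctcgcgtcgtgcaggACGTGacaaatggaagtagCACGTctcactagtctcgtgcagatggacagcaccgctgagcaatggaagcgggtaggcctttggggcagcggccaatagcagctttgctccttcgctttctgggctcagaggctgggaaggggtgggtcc
Ldha, first of 2 start sites, chr7:46845554-46845803, plus strand: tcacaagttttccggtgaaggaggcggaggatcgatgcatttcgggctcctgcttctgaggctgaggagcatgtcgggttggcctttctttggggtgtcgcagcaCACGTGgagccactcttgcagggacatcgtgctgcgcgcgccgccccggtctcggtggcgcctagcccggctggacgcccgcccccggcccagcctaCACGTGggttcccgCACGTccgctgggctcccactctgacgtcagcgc
The printed bases held 1 match for Slc2a1, 3 for Pfkfb3, 2 for Pgk1 and 5 for Ldha. At the start sites not printed, the same kind of stretch held 0 for Pfkfb3 and 1 for Ldha. Over the full 250 bases, 9 of the 10 members matched an entry, with 15 start sites among them. The windows of 2 of the 3 Aldoa start sites overlap and hold the same ACGTG, which is counted in both. ACGTG was in 9 of these 15 windows and in 16.6% of 32851 promoters of the same length. GCGTG was in 5 of 15 and in 28.2% of all, and either was in 12 of 15 and in 38.6% of all. These are matches of letters, and binding was not measured here.

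Levels below, in CPM, are UMI counts of a gene per 1000000 UMIs of the same class and library. A 3′ count is not scaled by length, so levels are compared within a gene and not between genes. Classes were compared over all 8 libraries with edgeR's quasi-likelihood test on summed counts and the library as a block. The threshold for a call was an adjusted p of 0.05 (Benjamini-Hochberg over 8836 genes). Of the 10 members, 8 passed the filter on low counts, and Hk2 and Slc2a4 did not. Log2 differences are given with standard errors (SE), and the order of subtraction is that of the class names. The classes are described with libraries of both diets and tissues together. A level summed over cells does not tell a lower level in all cells from fewer cells with the message. Shares of cells with a UMI are not reported here.

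Of the 8 members tested, Slc2a1 had the largest difference between classes, and it was highest in venous-like cells. The gene lies on chromosome 4 (119108711 to 119137983, GRCm38). Venous-like levels were 29.3 to 131.1 CPM, with a median of 57.9 over 8 libraries. In run A they were 56.0 CPM in mesentery on chow, 59.9 in adipose on chow, 131.1 in mesentery on high fat diet and 61.1 in adipose on high fat diet. In run B, in the same order, they were 55.3, 70.0, 29.3 and 39.6 CPM. The runs thus overlapped in venous-like cells.

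In arterial-like cells Slc2a1 differed more between the runs. The run A libraries, in the same order, had 7.56, 52.9, 29.7 and 56.3 CPM, from 2 to 16 UMIs each. The run B libraries had 9.97, 9.01, 5.2 and 4.32 CPM. Apart from mesentery on chow, each run A library lay above all run B libraries. Capillary-like cells had 72.2, 72.9, 22.9 and 36.8 CPM in run A, from 2 to 10 UMIs each, and 9.7, 11.4, 6.82 and 6.79 CPM in run B, without overlap. Lymphatic-like cells went the other way. They had 19.1, 3.46, 3.6 and 3.61 CPM in run A, from 3 to 15 UMIs each, and 62.1, 16.5, 20.8 and 18.4 CPM in run B.

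Slc2a1 was 5.02-fold lower in arterial-like than in venous-like cells (log2 difference -2.33 ± 0.48, adjusted p = 0.000289), in 8 of 8 libraries. Against capillary-like cells the venous-like level was 4.72-fold higher (-2.24 ± 0.45, adjusted p = 0.000235), in 6 of 8 libraries. The 2 libraries that went the other way are both chow libraries of run A. Against lymphatic-like cells the venous-like level was 3.44-fold higher (1.78 ± 0.44, adjusted p = 0.00152), in 7 of 8 libraries. Arterial-like and capillary-like levels did not differ by this test (-0.09 ± 0.56, adjusted p = 0.967).

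**Figure D1:**
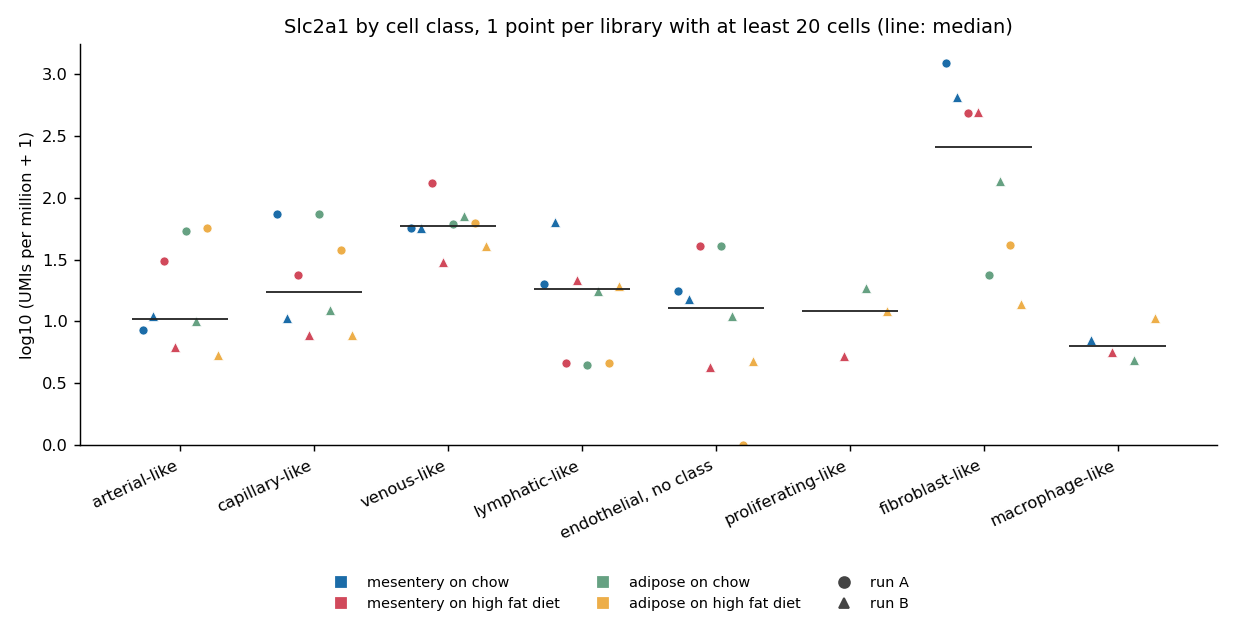
Slc2a1 as log10 of CPM plus 1 in the 4 endothelial classes and in other cell classes, 1 point per library with at least 20 cells, coloured by group, with circles for run A and triangles for run B and a line at the median. Venous-like libraries span 56.0 to 131.1 CPM in run A and 29.3 to 70.0 CPM in run B, while capillary-like libraries of run A lie above those of run B and 3 of the 4 lymphatic-like libraries of run A lie below those of run B.

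The comparisons of Slc2a1 with lymphatic-like cells depended on the run. The log2 difference of arterial-like minus lymphatic-like cells was 2.48 (adjusted p = 0.00496) in run A and -2.08 (adjusted p = 7.71e-05) in run B. The difference between the runs was itself called (-4.61 ± 0.77, run B minus run A, adjusted p = 0.000522). Capillary-like minus lymphatic-like cells gave 2.88 in run A (adjusted p = 0.00588) and -1.73 in run B (adjusted p = 0.000132), and differed between the runs by -4.6 ± 0.84 (adjusted p = 0.00161). Over both runs neither comparison was called (-0.54 ± 0.58 and -0.46 ± 0.55), and both turned positive without mesentery on chow B (0.34 and 0.45). Venous-like minus lymphatic-like cells were positive in both runs, at 3.57 in run A and 0.72 in run B, and their difference between the runs was called too (-2.9 ± 0.6, adjusted p = 0.00591). In run A alone the venous-like level was not called above the arterial-like (-1.09, adjusted p = 0.119) or the capillary-like level (-0.69, adjusted p = 0.459). In run B alone it was (-2.8 and -2.45, adjusted p = 8.35e-07 and 4.91e-07). The immediate early genes given above also differed between the runs in every class, and their part in these differences was not tested.

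Within venous-like cells, cluster 26, led by Glycam1 and Madcam1, had the highest Slc2a1 level, at 166.1 and 275.2 CPM in its 2 libraries with enough cells. Both are mesentery on chow, and only 2 cells of the cluster came from adipose. Cluster 26 also made up 22.1% of the venous-like cells of mesentery on high fat diet A, the library with the highest venous-like level. Glycam1 and Madcam1 encode addressins that lymphocytes bind on high endothelial venules. Without this cluster the differences from arterial-like (-1.89, adjusted p = 0.00482), capillary-like (-1.86, adjusted p = 0.00331) and lymphatic-like cells (1.22, adjusted p = 0.0428) were still called. With clusters drawn at a lower resolution the difference from lymphatic-like cells missed the threshold (1.25, adjusted p = 0.0511).

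Slc2a4 was near the limit of detection in endothelial cells. The gene lies on chromosome 11 (69942539 to 69948188, GRCm38). No UMI was counted in the endothelial cells of any run A library, where a count of 0 allows up to 0.6 to 1.49 CPM from counting error alone. In run B all endothelial cells together had 24 UMIs in mesentery on chow (1.6 CPM), 75 in adipose on chow (3.16 CPM), 7 in mesentery on high fat diet (0.53 CPM) and 5 in adipose on high fat diet (0.34 CPM). Most of these UMIs were in capillary-like cells, with 13, 67, 3 and 3 in the same order. In adipocyte-like cells, which 2 libraries held in number, Slc2a4 was at 63.3 and 96.3 CPM.

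Hk1 was lowest in lymphatic-like cells. The gene lies on chromosome 10 (62268855 to 62379908, GRCm38) and encodes the hexokinase that most tissues use. Arterial-like levels were 52.9 to 76.1 CPM (median 64.8, n = 8 libraries) and venous-like levels 47.5 to 81.1 (median 63.0). Capillary-like levels were 20.6 to 60.1 CPM (median 56.0) and lymphatic-like levels 16.6 to 55.8 (median 47.9). The ranges overlapped between all classes, but within a library the lymphatic-like level was the lower one in 8 of 8 libraries against arterial-like (log2 difference 0.66 ± 0.14, adjusted p = 0.000347) and venous-like cells (0.81 ± 0.14, adjusted p = 1.57e-05). Against capillary-like cells it was lower in 6 of 8 (0.47 ± 0.15, adjusted p = 0.00954), and that call was lost in either run alone (0.59 and 0.25, adjusted p = 0.222 and 0.0677).

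Hk2, the hexokinase of insulin-sensitive tissues, lies on chromosome 6 (82725025 to 82774454, GRCm38). All endothelial cells together had 5 to 202 UMIs of it per library, or 0.99 to 8.51 CPM. The 2 highest libraries were adipose on chow B and mesentery on chow B. Its levels in capillary-like cells are described with the diets below.

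Pfkfb3 was higher in venous-like cells than in the other 3 classes. The gene lies on chromosome 2 (11471433 to 11554077, GRCm38). Venous-like levels were 23.6 to 93.0 CPM, with a median of 47.2. Medians were 21.7 CPM in arterial-like, 23.6 in capillary-like and 27.0 in lymphatic-like cells. The venous-like level was 1.79-fold higher than the arterial-like in 8 of 8 libraries (-0.84 ± 0.21, adjusted p = 0.00293). It was 1.57-fold higher than the capillary-like in 7 of 8 (-0.66 ± 0.21, adjusted p = 0.0157) and 1.95-fold higher than the lymphatic-like in 7 of 8 (0.96 ± 0.22, adjusted p = 0.000658). In run B alone the last 2 differences were smaller and not called (-0.32 and 0.44, adjusted p = 0.108 and 0.103). Capillary-like cells of run A had only 0 to 10 UMIs of Pfkfb3 per library.

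Aldoa was higher in lymphatic-like cells than in capillary-like and venous-like cells. It maps to chromosome 7 (126795234 to 126800751, GRCm38). Lymphatic-like levels were 299.9 to 454.5 CPM (median 399.8). Medians in the other classes were 307.6 CPM in arterial-like, 272.5 in capillary-like and 289.3 in venous-like cells. Lymphatic-like cells exceeded capillary-like cells in 7 of 8 libraries (-0.39 ± 0.12, adjusted p = 0.00745) and venous-like cells in 8 of 8 (-0.3 ± 0.11, adjusted p = 0.0336). The call against venous-like cells was lost when any of 3 run B libraries was left out, namely adipose on chow (adjusted p = 0.095), mesentery on high fat diet (0.0917) or adipose on high fat diet (0.124). The difference between capillary-like and venous-like cells was not called over both runs (-0.09 ± 0.12), but differed between the runs by 0.85 ± 0.18 (adjusted p = 0.00879). In run A, capillary-like cells had 183.3 to 340.0 CPM from 16 to 64 UMIs.

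Gapdh followed the order venous-like, then arterial-like and capillary-like, then lymphatic-like cells. Its locus is on chromosome 6 (125161715 to 125166467, GRCm38). Medians in that order were 547.8, 455.1, 456.7 and 358.2 CPM, and the lowest and highest libraries were at 257.7 CPM in lymphatic-like and 784.4 CPM in venous-like cells. Lymphatic-like cells were lower in 8 of 8 libraries than arterial-like (0.48 ± 0.09, adjusted p = 3.55e-05), capillary-like (0.5 ± 0.09, adjusted p = 2.69e-05) and venous-like cells (0.76 ± 0.09, adjusted p = 2.19e-08). The neighbours arterial-like and capillary-like did not differ by the test (-0.02 ± 0.09). Venous-like cells were called above arterial-like (-0.28 ± 0.09, adjusted p = 0.0128) and capillary-like cells (-0.26 ± 0.09, adjusted p = 0.0201). Both of these calls were lost without cluster 26 (-0.14 and -0.12, adjusted p = 0.227 and 0.282) and in run B alone (-0.11 and -0.08), and the call against arterial-like cells was lost without mesentery on high fat diet A (-0.21, adjusted p = 0.0541). They were lost as well with no filter on low counts (adjusted p = 0.0555 and 0.0623) and at the lower clustering resolution (adjusted p = 0.0878 and 0.465).

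Pgk1 was the member for which edgeR called no pair of classes. It is encoded on chromosome X (106187100 to 106203699, GRCm38). Medians ran from 59.2 CPM in capillary-like to 83.7 CPM in lymphatic-like cells, and the range of all 32 class levels was 44.1 to 97.4 CPM. In all endothelial cells run A had 74.1 to 93.2 CPM and run B 57.6 to 70.6 CPM, without overlap. In capillary-like and lymphatic-like cells the runs overlapped.

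Pkm was highest in venous-like cells. It maps to chromosome 9 (59656368 to 59679375, GRCm38). Its venous-like levels were 312.3 to 472.1 CPM in run A and 151.9 to 196.4 CPM in run B. Arterial-like levels were 223.1 to 307.7 CPM in run A and 119.2 to 139.1 in run B. Lymphatic-like levels were 155.7 to 242.5 CPM in run A and 104.4 to 116.4 in run B. In each run the venous-like libraries lay above all arterial-like ones. Venous-like cells exceeded arterial-like (-0.63 ± 0.11, adjusted p = 4.56e-05) and lymphatic-like cells (0.98 ± 0.11, adjusted p = 2.22e-08) in 8 of 8 libraries and capillary-like cells in 6 of 8 (-0.61 ± 0.11, adjusted p = 1e-04). Arterial-like cells exceeded lymphatic-like cells in 8 of 8 (0.35 ± 0.11, adjusted p = 0.0123), which was not called in run B alone (0.21, adjusted p = 0.147) or in cells with at most 5% mitochondrial counts (0.24, adjusted p = 0.106). The call between capillary-like and venous-like cells was lost in run A alone (-0.36, adjusted p = 0.152).

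Between capillary-like and lymphatic-like cells, Pkm was called over both runs (0.38 ± 0.12, adjusted p = 0.00968) but the runs differed by -0.73 ± 0.19 (adjusted p = 0.0247). In run B alone the difference was 0.03. The call was also lost without mesentery on chow A (0.27, adjusted p = 0.0752), adipose on chow A (0.27, adjusted p = 0.0846) or adipose on high fat diet A (0.3, adjusted p = 0.0666). Capillary-like cells had 252.0 to 469.5 CPM in run A and 90.7 to 128.7 CPM in run B, the widest gap between runs of the classes for this gene.

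Ldha separated lymphatic-like cells from the other classes most clearly. Its locus is on chromosome 7 (46841475 to 46855627, GRCm38). Lymphatic-like levels were 128.0 to 181.4 CPM, with a median of 141.9. Every library of the other 3 classes lay above that range, at 201.6 to 433.5 CPM in arterial-like, 183.3 to 364.3 in capillary-like and 208.9 to 308.3 in venous-like cells. Arterial-like cells exceeded lymphatic-like cells 2.13-fold (1.09 ± 0.11, adjusted p = 2.5e-09), venous-like cells 1.87-fold (0.91 ± 0.11, adjusted p = 8.27e-08) and capillary-like cells 1.74-fold (0.8 ± 0.12, adjusted p = 1.22e-06), each in 8 of 8 libraries. The arterial-like level was above the capillary-like in 7 of 8 libraries, which missed the threshold (0.3 ± 0.11, adjusted p = 0.0655). That comparison was called without mesentery on chow B (0.37, adjusted p = 0.0298). The matches in the printed Ldha promoter, 5 in all, are part of every cell's genome and do not distinguish the classes.

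**Figure D2:**
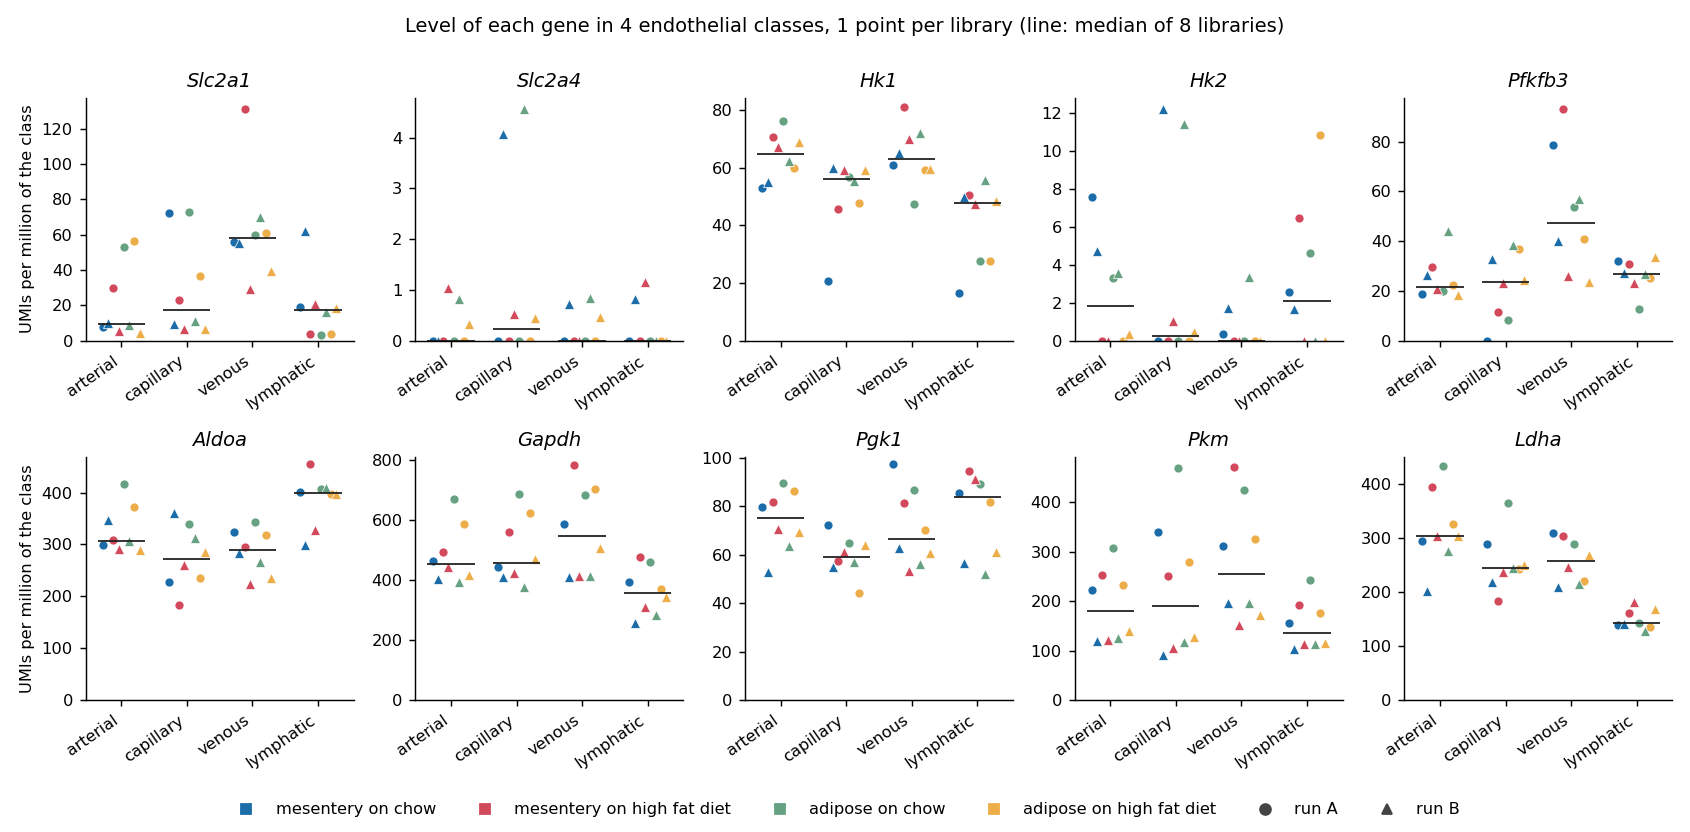
Levels in CPM, on linear axes from 0 that differ between genes, of the 10 members in the 4 endothelial classes, 1 point per library, coloured by group, with circles for run A, triangles for run B and a line at the median. Ldha in lymphatic-like cells spans 128.0 to 181.4 CPM, below every library of the other classes, while Slc2a4 and Hk2 are at or near 0 in most libraries.

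Counted by comparison, no member was called between arterial-like and capillary-like cells, where 11.3% of the genes tested were higher in arterial-like and 9.91% in capillary-like cells. At an unadjusted p under 0.05 there was 1 member, Ldha, and an exact sign-flip test over libraries called 2 others, Hk1 and Pgk1 (adjusted p = 0.0426 for each, over 60 tests). Between arterial-like and venous-like cells, 4 of 8 members were higher in venous-like cells (Pkm, Slc2a1, Pfkfb3 and Gapdh), against 16.7% of all genes, and none in arterial-like cells, against 14.9%. The median log2 difference of the members was -0.21 and that of all genes -0.01. Between capillary-like and venous-like cells the same 4 genes were higher in venous-like cells, against 18.3% of all genes, and none in capillary-like cells, against 16.0%. The medians were -0.3 and 0.01.

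Lymphatic-like cells were below the blood vessel classes for most members that were called. Against arterial-like cells, Ldha, Gapdh, Hk1 and Pkm were higher in arterial-like cells (4 of 8, against 22.7% of all genes) and none in lymphatic-like cells (22.0% of all genes). Against capillary-like cells the same 4 genes were higher in capillary-like cells (22.8% of all genes) and Aldoa in lymphatic-like cells (22.2% of all genes). Against venous-like cells 6 were higher in venous-like cells (22.0% of all genes), namely Pkm, Gapdh, Ldha, Hk1, Pfkfb3 and Slc2a1, and Aldoa in lymphatic-like cells (18.3% of all genes). The median log2 difference of the members was 0.24, 0.34 and 0.86 in these comparisons, and that of all genes was 0 in each.

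**Figure D3:**
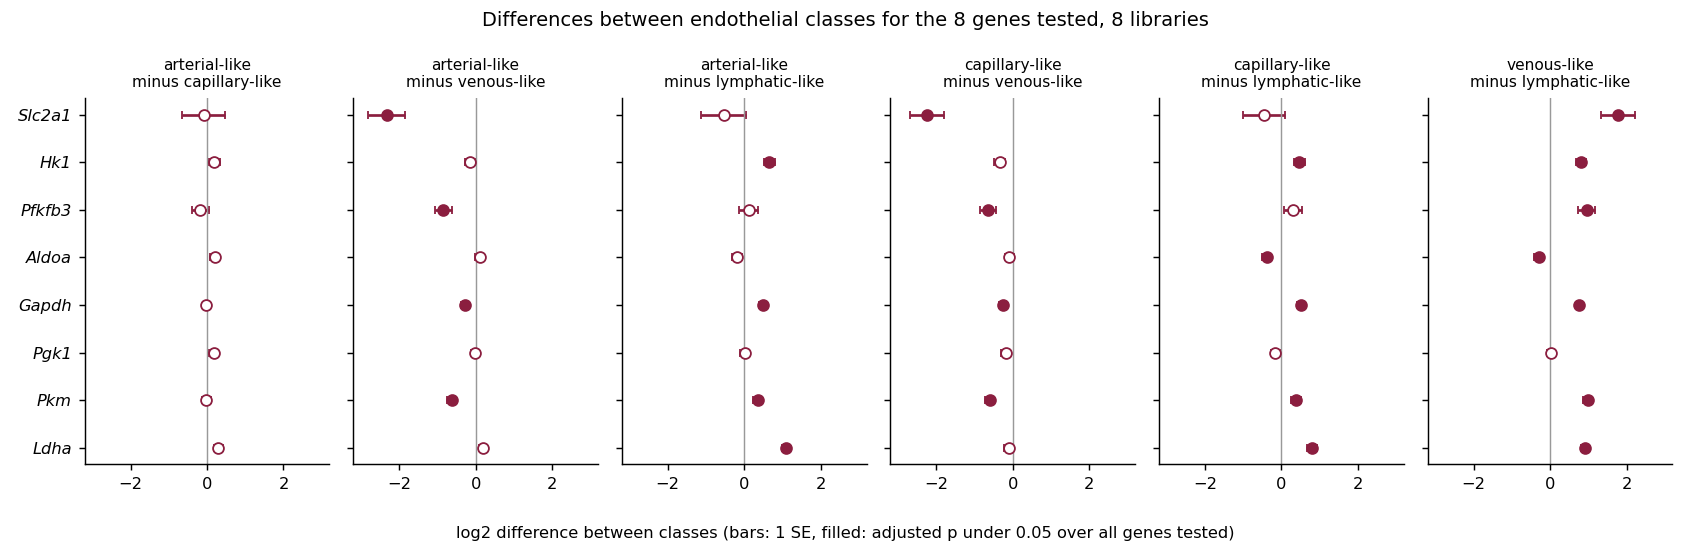
Log2 differences between classes with bars of 1 SE for the 8 members tested in each of the 6 pairs of classes, with filled points where the adjusted p was under 0.05. Between venous-like and lymphatic-like cells 6 members lie above 0 as called, and Aldoa lies below 0.

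Whether a difference between classes varied with diet or tissue was tested with interaction terms. No member was called for diet, for which 0 to 0.0340% of genes were called (0.0340% for capillary-like against venous-like cells, 0.0113% for capillary-like against lymphatic-like cells and 0% in the other 4 pairs). For tissue no member was called either. Shares of genes called were 0.147% for arterial-like against venous-like, 0.0679% for arterial-like against lymphatic-like and for capillary-like against lymphatic-like, 0.102% for capillary-like against venous-like, 0.328% for venous-like against lymphatic-like and 0% for arterial-like against capillary-like cells. The terms for diet and tissue were fitted without one for the run. For Slc2a1 the SE of the diet terms was 0.92 to 1.49, and the tissue term of arterial-like against lymphatic-like cells was -1.95 ± 1.2. These terms do not show that class differences were alike between diets or tissues. For the run, 0.962% of genes were called for arterial-like against capillary-like cells and 1.74% for arterial-like against venous-like cells, with no member among them. The shares were 4.05% for arterial-like against lymphatic-like (1 of 8 members, Slc2a1), 3.35% for capillary-like against venous-like (1 of 8, Aldoa), 4.01% for capillary-like against lymphatic-like (2 of 8, Slc2a1 and Pkm) and 3.54% for venous-like against lymphatic-like cells (1 of 8, Slc2a1).

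Levels in all endothelial cells also differed between the runs. Slc2a1 had 29.5 to 41.3 CPM in run A and 10.5 to 27.8 CPM in run B. Pkm had 242.1 to 315.9 CPM in run A and 130.7 to 153.7 CPM in run B, a ratio of mean levels of 1.96. Gapdh, Aldoa and Pgk1 were also higher in run A without overlap, with ratios of 1.26, 1.22 and 1.35. Slc2a4 went the other way, with no UMI in run A and 0.34 to 3.16 CPM in run B. A count of 0 in run A allows up to 0.6 to 1.49 CPM, which reaches into the range of run B. The share of all genes without overlap between the runs was not counted. Ldha (0.98), Pfkfb3 (1.37), Hk1 (0.83) and Hk2 (0.79) overlapped between the runs. The runs differ in depth, in mice and in software version, which cannot be told apart. They also differ in class makeup. In adipose on chow, lymphatic-like cells were 579 of 1336 endothelial cells in run A and 165 of 4012 in run B. Within classes the runs overlapped for Aldoa in arterial-like, capillary-like and lymphatic-like cells (ratios 1.13, 0.81 and 1.16). They overlapped for Pgk1 in capillary-like and lymphatic-like (1.01 and 1.34) and for Gapdh in capillary-like cells (1.38). Mouse Gapdh, Ldha, Aldoa and Pgk1 have near-identical pseudogene copies, and the treatment of reads that match several copies is not given here, so their levels are uncertain.

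Other genes of the pathway were counted by list. Their differences between classes are given over both runs together, and whether they changed with the run is not reported here. Of 22 other glycolytic enzymes, 8 passed the filter. Pfkl, a subunit of phosphofructokinase, differed in 5 of 6 pairs: it was higher in arterial-like than in capillary-like cells (0.47 ± 0.13, adjusted p = 0.0091), higher in venous-like than in capillary-like cells (-0.63 ± 0.13, adjusted p = 0.000214), and lower in lymphatic-like cells than in all 3 other classes (0.92 ± 0.14, 0.45 ± 0.15 and 1.08 ± 0.13 for arterial-like, capillary-like and venous-like, adjusted p = 2.4e-06, 0.0121 and 6.93e-08). Pfkp, another subunit, was higher in capillary-like than in arterial-like, venous-like and lymphatic-like cells (-0.32 ± 0.12, 0.59 ± 0.11 and 0.74 ± 0.12, adjusted p = 0.0474, 0.000127 and 9.29e-06). The counts of the list were 3 higher and 1 lower for arterial-like against capillary-like, 0 and 1 against venous-like and 3 and 0 against lymphatic-like cells. For capillary-like cells they were 1 and 1 against venous-like and 2 and 1 against lymphatic-like cells, and for venous-like against lymphatic-like cells 2 and 0. The list medians lay between -0.14 and 0.12.

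Of 9 other glucose transporters, only Slc2a8, an intracellular transporter, passed the filter. It was higher in lymphatic-like than in arterial-like (-0.72 ± 0.26, adjusted p = 0.0218) and capillary-like cells (-0.61 ± 0.25, adjusted p = 0.0453). In lymphatic-like cells it had 8.07 to 25.3 CPM, and its ranges overlapped with those of the other classes.

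Among 7 of 13 tested genes of pyruvate and lactate, Ldhb and Pdk1 stood lowest in lymphatic-like cells. Ldhb, the other main subunit of lactate dehydrogenase, had 0 to 3.61 CPM there and medians of 10.2, 10.3 and 18.2 CPM in arterial-like, capillary-like and venous-like cells. The differences were 3.44 ± 0.48, 3.7 ± 0.46 and 3.72 ± 0.44 (adjusted p = 7.04e-07, 1.14e-07 and 5.35e-08), in the same direction as those of Ldha. A count of 0 in lymphatic-like cells allows up to 2.16 to 3.83 CPM in run A and 2.49 to 3.8 CPM in run B. Pdk1, a kinase that blocks entry of pyruvate into the mitochondrial cycle, had medians of 25.7, 17.3, 12.1 and 2.42 CPM in arterial-like, capillary-like, venous-like and lymphatic-like cells. It was called higher in arterial-like and capillary-like than in venous-like cells (1.02 ± 0.21 and 0.8 ± 0.21). Bsg, the chaperone of lactate carriers, was higher in arterial-like than in capillary-like cells (1.1 ± 0.19, adjusted p = 6.89e-05). Its ranges overlapped, at 601.25 to 1082 CPM in arterial-like and 229.12 to 1384.29 CPM in capillary-like cells. Between 1 and 4 genes of the list were called per pair, 3 higher and 1 lower for arterial-like against lymphatic-like cells.

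All 15 genes of the list on hypoxia and its targets passed the filter, and they did not move one way. For arterial-like against venous-like cells 4 were higher and 4 lower, and for arterial-like against lymphatic-like cells 6 and 4. Epas1, which encodes HIF-2α, had medians of 1261.8, 727.6, 547.5 and 109.6 CPM in arterial-like, capillary-like, venous-like and lymphatic-like cells. Hif1a had its highest median in venous-like cells, at 232.5 CPM against 94.4, 127.0 and 82.1 CPM in arterial-like, capillary-like and lymphatic-like cells. Its venous-like level exceeded the arterial-like (-1.29 ± 0.15, adjusted p = 6.91e-08), the capillary-like (-1.08 ± 0.15, adjusted p = 1.74e-06) and the lymphatic-like level (1.54 ± 0.15, adjusted p = 9.58e-10). Egln3, an oxygen-sensing prolyl hydroxylase, was at a median of 11.5 CPM in venous-like and 17.0 CPM in lymphatic-like cells, and at 0.26 and 0.17 CPM in arterial-like and capillary-like cells. The highest libraries of the last 2 classes had 7.44 and 16.19 CPM. In run A a count of 0 allows up to 9.93 to 11.34 CPM in arterial-like and 11.02 to 34.37 CPM in capillary-like cells. Vegfa, the endothelial growth factor, had its highest median in arterial-like cells, at 37.0 CPM, and Adm, encoding the vasodilator adrenomedullin, in lymphatic-like cells, at 125.2 CPM.

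Of 6 brakes on glucose use, 3 were tested. Foxo1, a transcription factor known to restrain endothelial metabolism, was higher in venous-like than in arterial-like (-0.67 ± 0.09, adjusted p = 9.25e-07), capillary-like (-0.76 ± 0.09, adjusted p = 1.59e-07) and lymphatic-like cells (0.4 ± 0.09, adjusted p = 0.000445). Txnip, which promotes removal of GLUT1 from the cell surface, was lower in venous-like than in capillary-like (0.77 ± 0.22, adjusted p = 0.00629) and lymphatic-like cells (-0.74 ± 0.21, adjusted p = 0.00616). Its level in arterial-like against venous-like cells was not called. Arrdc4, a relative of Txnip, went the other way in the same pairs: it was higher in venous-like than in capillary-like (-0.73 ± 0.17, adjusted p = 0.000843) and lymphatic-like cells (0.66 ± 0.16, adjusted p = 0.0016). It was also higher in arterial-like than in capillary-like (0.74 ± 0.17, adjusted p = 0.0013) and lymphatic-like cells (0.67 ± 0.17, adjusted p = 0.0019).

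The genes whose levels ran most like those of each member were sought over the 32 sums of 8 libraries and 4 classes, each gene centred within its library, among 8794 genes outside the lists. These correlations of log2 CPM are descriptions, since the points share libraries and classes. Among the genes nearest to Slc2a1 were Ier3 (Pearson r = 0.86) and Rrbp1 (0.85), and Ier3 is 1 of the immediate early genes summed above. Pfkfb3 ran most like Gm2a (0.94), Hipk3 (0.89) and Arhgef18 (0.89), and Ldha most like Snx10 (0.95), Casp1 (0.94) and Shroom4 (0.93). Gapdh was nearest to Fnbp1l (0.91), Cdc42ep4 and Il4ra (0.9 each), and Pkm to Mfge8 (0.92), Ptpru (0.91) and Tmem176a (0.89). Aldoa was nearest to Ghitm (0.87), Hebp1 and Nt5dc3 (0.86 each), and Hk1 to Resf1, Cdkn2d (0.87 each) and Cyfip1 (0.86). Pgk1 had the least close neighbours, Minpp1 (0.82), Ago1 and Ppie (0.81 each).

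The study's main question concerns the diet, so the diets were compared within each tissue and the tissues within each diet, in all endothelial, arterial-like and capillary-like cells. With 1 mean per group and 2 libraries each, no member was called in any of these 15 comparisons, interactions of tissue and diet included. The share of all genes called was 0% in each, of 13250 genes in all endothelial, 9238 in arterial-like and 10344 in capillary-like cells. In simulated counts for diet in mesentery this fit recovered 0 of 65 changes of 4-fold in all endothelial and 0 of 66 in capillary-like cells. The absence of calls thus does not show that levels were alike. At an unadjusted p under 0.05, edgeR gave 3 to 448 genes per comparison. Among the members this held for Hk2 in capillary-like cells alone, in both tissues. DESeq2 called 0 to 70 genes and limma-voom 0, with no member among them.

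The fold changes of abundant members with diet were small beside their errors. In arterial-like cells on high fat diet against chow, Gapdh differed by 0.09 ± 0.43 in mesentery and -0.06 ± 0.43 in adipose, Aldoa by -0.13 ± 0.36 and -0.1 ± 0.36 and Pkm by 0.11 ± 0.65 and -0.21 ± 0.64. Over the 8 members tested there, differences ranged from -0.13 to 0.47 in mesentery and from -0.76 to 0.06 in adipose. Errors of this size do not show that levels were alike.

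Because the run letters mark repeats of the experiment, the same comparisons were fitted with the run as a block. In all endothelial cells the diet then called 0.317% of genes in mesentery and 0.0830% in adipose. The tissues differed in 0.770% on chow and 0% under high fat diet, and 0% had an interaction. In arterial-like cells the shares, in the same order, were 0.801%, 0.325%, 0.693%, 0.119% and 0.0216%. In capillary-like cells they were 0.570%, 1.13%, 0.367%, 0.155% and 0%. Among all of these the only member past the threshold was Hk2, for diet in adipose in capillary-like cells, where it had no UMI in run A and passed the filter through the chow libraries of run B alone.

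Slc2a1 in all endothelial cells was lower on high fat diet in mesentery in both runs, at 33.0 against 41.3 CPM in run A and 10.5 against 27.8 CPM in run B. With the block this was -0.91 ± 0.25 and was not called (adjusted p = 0.215, unadjusted p = 0.00708). It was called without mesentery on chow A (-1.21 ± 0.25, adjusted p = 0.0417), which leaves 1 chow library of mesentery, assumed to vary like the other groups. Without the block the difference of -0.73 ± 0.74 moved between -1.77 and -0.08 as single libraries were left out. Within the classes the runs did not go the same way in mesentery. In run A, Slc2a1 was higher on high fat diet in venous-like (131.1 against 56.0 CPM) and arterial-like cells, and lower in capillary-like and lymphatic-like cells. In run B it was lower on high fat diet in each class. In adipose Slc2a1 was at 29.5 against 32.8 CPM in run A and 11.8 against 17.1 CPM in run B (-0.32 ± 0.25 with the block, adjusted p = 1). Venous-like cells, where Slc2a1 is highest, made up 603 of the 1238 endothelial cells of mesentery on chow A and 86 of the 671 of mesentery on high fat diet A. In run B they made up 789 of 3402 on chow and 346 of 2438 on high fat diet, so the class makeup moves with this value. Its part was not tested.

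In arterial-like cells, Ldha in mesentery was 394.1 CPM on high fat diet against 295.0 on chow in run A and 303.9 against 201.6 in run B. With the block this was 0.5 ± 0.22 and was not called (adjusted p = 0.795). Pfkfb3 in adipose was 22.5 against 19.9 CPM in run A, from 6 UMIs each, and 18.3 against 44.0 in run B (-0.99 ± 0.34, adjusted p = 0.71 with the block). The runs went opposite ways for Pfkfb3 and the same way for Ldha.

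**Figure D4:**
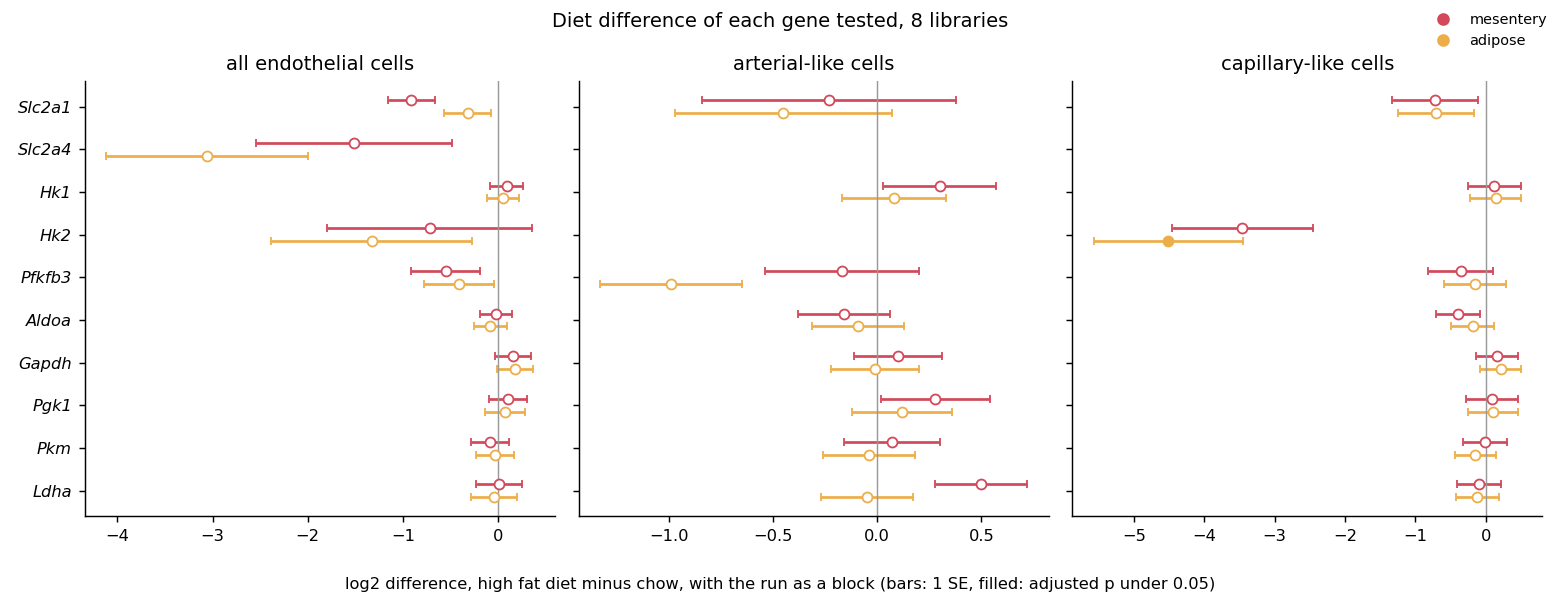
Log2 differences of high fat diet minus chow with bars of 1 SE for the members tested in all endothelial, arterial-like and capillary-like cells, with the run as a block, in both tissues. The axes of the panels differ in scale, and a filled point has an adjusted p under 0.05. Hk2 in capillary-like cells lies at -4.51 in adipose and -3.46 in mesentery, from fits that rest on run B, and Ldha in arterial-like cells of mesentery lies at 0.5 without being called.

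Hk2 in capillary-like cells was lower on high fat diet in run B, together with markers of adipocytes. In run B it had 39 UMIs in mesentery on chow (12.2 CPM), 168 in adipose on chow (11.4 CPM), 6 in mesentery on high fat diet (1.05 CPM) and 3 in adipose on high fat diet (0.44 CPM). All 4 run A libraries had 0, which allows up to 11.02 to 34.37 CPM at their depth from counting error alone. The libraries on chow were thus high and those on high fat diet low in run B, while in run A no UMI was counted in either. Hk2 passed the filter in these cells only through the 2 chow libraries of run B, where it was high, so the fit rests on 1 library with counts per arm, and its p-values are given as a description and support no difference by diet. With the run as a block the difference was -4.51 ± 1.06 in adipose (adjusted p = 0.00626) and -3.46 ± 1.0 in mesentery (adjusted p = 0.0905). The mesentery value passed the threshold without mesentery on chow A (adjusted p = 0.0479) or adipose on chow A (adjusted p = 0.0437), each of which leaves a group with 1 library. With a run B library left out, no value was obtained for Hk2 in these cells. Without the block the differences were -4.25 ± 1.4 and -3.17 ± 1.35 in adipose and mesentery (adjusted p = 1 for each).

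The 8 adipocyte markers (Adipoq, Plin1, Cfd, Car3, Lep, Retn, Cidec and Cdo1) summed to 3279.3 CPM in the capillary-like cells of mesentery on chow B and 3852.4 CPM in those of adipose on chow B. They summed to 253.8 and 81.9 CPM in those of mesentery and adipose on high fat diet B, with all 8 detected in each of these 4 libraries. In run A they summed to 72.2, 234.8, 0.0 and 117.6 CPM, with 3, 5, 0 and 7 markers detected, in the same order. Per 1000 adipocyte marker UMIs, capillary-like cells of run B had 3.72, 2.96, 4.14 and 5.41 Hk2 UMIs in the order of the groups above. Adipocyte-like cells had 8.04 and 5.65 per 1000 in mesentery and adipose on chow B, with Hk2 at 378.8 and 248.8 CPM. Slc2a4 in capillary-like cells of run B had 1.24, 1.18, 2.07 and 5.41 UMIs per 1000 marker UMIs, against 1.34 and 2.19 in adipocyte-like cells. The markers thus moved with Hk2 and Slc2a4 across the capillary-like libraries of run B, and their part in the difference was not tested. In lymphatic-like cells, run A had 2.55 to 10.8 CPM of Hk2, from 2 to 9 UMIs, with the markers at 1.2 to 19.1 CPM. Run B had 0 to 1.66 CPM of Hk2 with the markers at 3.5 to 160.7 CPM. In the run B libraries without a UMI, a count of 0 allows up to 3.46 to 3.8 CPM, above the lowest run A level.

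**Figure D5:**
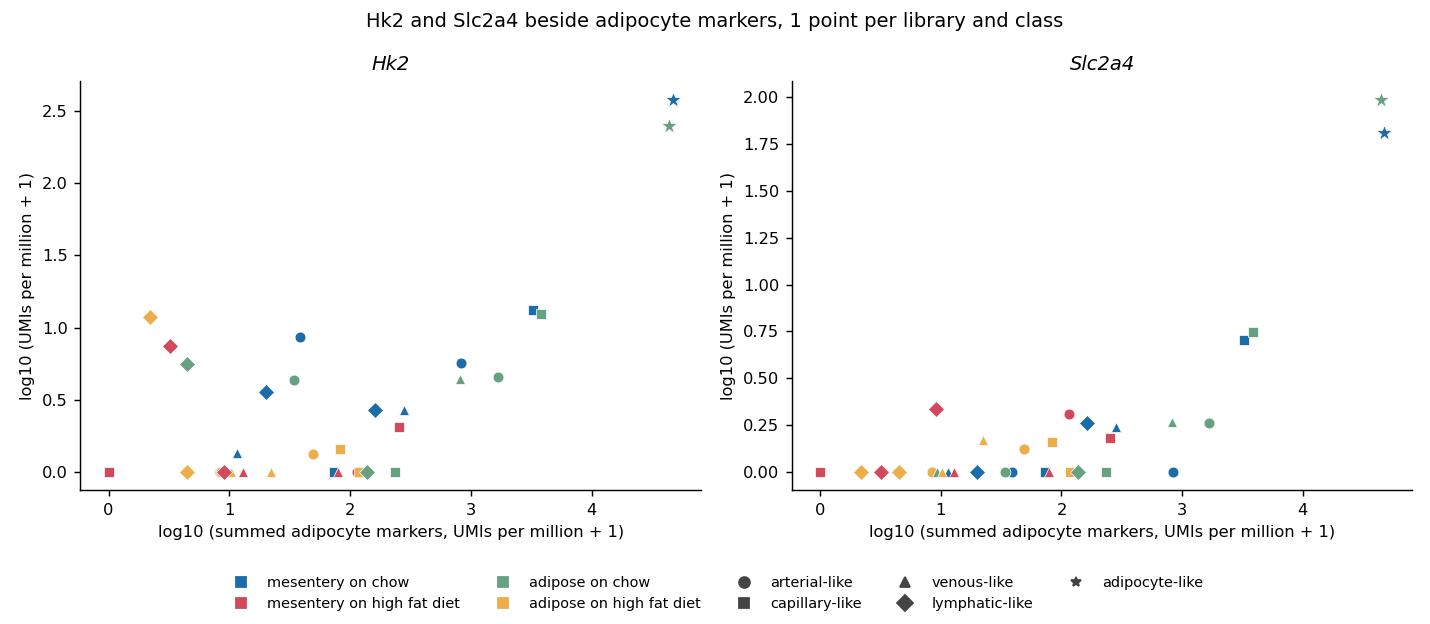
Hk2 and Slc2a4 against the summed adipocyte markers, both as log10 of CPM plus 1, with 1 point per library and class, coloured by group, and the shape showing the class. Of the capillary-like libraries, both chow libraries of run B, at 3279.3 and 3852.4 CPM of markers, have 12.2 and 11.4 CPM of Hk2, and the other 6 libraries, at 0.0 to 253.8 CPM of markers, have 0 to 1.05 CPM.

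The capillary-like class was also made up differently in these libraries. Of its clusters, cluster 2 held 85.3% of the capillary-like cells of adipose on chow B and 53.2% of those of mesentery on chow B, and cluster 1 held 96.2% and 92.5% of those of adipose and mesentery on high fat diet B. In run A, cluster 1 held 83.0% of those of adipose on chow, 67.6% of mesentery on chow, 31.4% of adipose on high fat diet and 77.8% of mesentery on high fat diet. The cluster that dominated thus changed with the diet in run B and not in the same way in run A.

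Of the other pathway lists, no gene was called by diet or tissue with 1 mean per group. With the run as a block, 3 were. Vegfa was higher in mesentery than in adipose on chow in arterial-like cells (1.54 ± 0.3, adjusted p = 0.00728). In capillary-like cells of mesentery, Mpc1, a subunit of the mitochondrial pyruvate carrier, fell with high fat diet (-1.54 ± 0.35, adjusted p = 0.00585), as did Adm (-1.84 ± 0.43, adjusted p = 0.00916). Mpc1 had 1 UMI on high fat diet A against 11 on chow A, and 77.1 CPM on high fat diet B against 210.5 CPM on chow B. Adm had 0 UMIs against 12 in run A, and 19.9 against 64.1 CPM in run B. These are the libraries of run B in which adipocyte markers fell from 3279.3 to 253.8 CPM and cluster 2 from 53.2% to 7.5% of the class between chow and high fat diet, and the part of either in these differences was not tested.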

How the data were processed

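Single-cell 3′ libraries of sorted endothelial cells were measured in 8 samples. The files that the authors deposited hold raw UMI counts for each gene and barcode. Per the file headers, run A carries Cell Ranger version 3.0.2 and run B 5.0.0, and per the submitters' processing notes the build was mm10 and Seurat 4.3.0 was used. No annotation release is stated, so gene positions are those of GENCODE M21 on GRCm38, matched by identifier. Cells with at least 500 UMIs, 300 genes and at most 10% mitochondrial counts were kept (23970), and 857 called doublets (3.58%) were removed at the share that the loading predicts, because the automatic threshold marked 48 (0.2%). Leiden clusters (31, resolution 1.0) were named from marker lists when at least 3 markers were raised 1.5-fold. Sums of at least 20 cells were tested with edgeR 4.0.16 (TMM, filterByExpr, quasi-likelihood F, from which the SE is taken), with DESeq2 1.42.0 and limma 3.58.1 as alternatives, in R 4.3.3 and Python 3.11.15 (scanpy 1.11.5, leidenalg 0.10.2, numpy 2.4.6, scipy 1.17.1). The sign-flip test over 8 libraries is exact and two-sided, and cannot go below p = 0.00781. Groups come from the sample titles. The 2 libraries of a group are separate pools of 6 mice. Run letters pair the samples, since the whole experiment was repeated, per the labels' protocols. Deviations from the group means correlated across genes by 0.59 to 0.75 over the 6 pairs of groups in all endothelial, 0.51 to 0.61 in arterial-like and 0.28 to 0.37 in capillary-like cells. Intervals and limits for a count of 0 (3 UMIs) cover counting error only. All 10 members are named, with at most 6 called genes per pathway list and comparison and the 3 nearest genes of each tested member, of which 1 is not reported here. Members and lists were chosen with earlier results of these data known. Other filters, resolutions, normalisations, single runs and left-out libraries were tried. Scripts were tested on simulated counts with 200 genes changed 1.5-, 2- or 4-fold. Between capillary-like and venous-like cells 57 of 66 changes of 2-fold were recovered, beside 17 unchanged genes called. For diet in mesentery, 1 mean per group recovered 0 of 65 changes of 4-fold in all endothelial and 0 of 66 in capillary-like cells. With the run as a block these were 50 of 66 and 39 of 64, and 18 and 3 unchanged genes were called.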

Additional observations from a re-analysis of the deposited data

Results flagged for a closer look

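In 5 cases the difference of a member between classes itself differed between runs A and B, by an interaction term in edgeR with adjusted p under 0.05. For Slc2a1, run B minus run A was -4.61 (adjusted p = 0.000522) in arterial-like against lymphatic-like, -4.6 (adjusted p = 0.00161) in capillary-like against lymphatic-like and -2.9 (adjusted p = 0.00591) in venous-like against lymphatic-like cells. For Aldoa it was 0.85 (adjusted p = 0.00879) in capillary-like against venous-like cells. For Pkm it was -0.73 (adjusted p = 0.0247) in capillary-like against lymphatic-like cells. Lymphatic-like cells of run A had 3 to 15 UMIs of Slc2a1 per library, and capillary-like cells of run A had 16 to 64 UMIs of Aldoa and 22 to 76 of Pkm.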

How the results depend on the processing

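Counts of members called stayed within 1.5 times of the reported count in 465 recomputed counts and did not in 21. Most of the 465 compare 0 with 0 for diet or tissue and say little about stability. The sign-flip counts include Hk2 for arterial-like against venous-like cells, and Slc2a4 for arterial-like and venous-like against lymphatic-like cells. Both genes failed the filter. Slc2a4 had 0 UMIs in run A in these classes, where the sign comes from the constant added before the logarithm. The same holds for Hk2 in mesentery on high fat diet A, adipose on high fat diet A and mesentery on high fat diet B. In these libraries it had 0 UMIs in both arterial-like and venous-like cells. For arterial-like against capillary-like cells, where none was called, 1 was called with no filter on low counts, with clusters at resolution 0.5 or with run A alone, and 2 with the exact sign-flip test. With no replicate block (no library block) 2 were called for arterial-like against lymphatic-like, 2 for arterial-like against venous-like, 3 for capillary-like against lymphatic-like and 2 for capillary-like against venous-like cells. With run B alone 3 were called for capillary-like against lymphatic-like and 2 for capillary-like against venous-like cells, and with the sign-flip test 3 and 1. With the run as a replicate block 1 was called for diet in adipose in capillary-like cells (Hk2, counted in run B alone), and this block changed no other member's call with all libraries. Leaving out single libraries, with or without the run block (the former, the interactions with run and the venous-like cells without cluster 26 were chosen after seeing the data), gave 0 to 1 for arterial-like against capillary-like, 3 to 4 for arterial-like against venous-like, 4 to 5 for capillary-like against lymphatic-like and against venous-like, 6 to 7 for venous-like against lymphatic-like, and 0 to 1 for diet in mesentery in all endothelial and capillary-like cells and for diet in adipose in capillary-like cells. Direction turned in 4 cases, all for Slc2a1: against lymphatic-like cells, arterial-like gave 0.34 without mesentery on chow B and 2.48 in run A alone, and capillary-like gave 0.45 and 2.88. Over all left-out libraries these differences ran from -0.97 to 0.34 and from -0.8 to 0.45. The cause was not tested. Depth limits Slc2a1, Hk2, Slc2a4 and Pfkfb3 most, above all in capillary-like cells of run A.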

Other observations

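Slc2a1 was high in cluster 22, 1 of 2 clusters named fibroblast-like, whose cells came mostly from the mesentery. Fibroblast-like cells of the mesentery had 1216.1 CPM on chow A, 484.3 on high fat diet A, 645.6 on chow B and 489.4 on high fat diet B, from 32 to 181 cells per library. Fibroblast-like cells of adipose had 22.9, 40.1, 135.6 and 12.8 CPM in adipose on chow A, high fat diet A, chow B and high fat diet B. The tissues did not overlap, and no test was run on these few cells. The class joins 2 clusters that the tissues held in different shares. Cluster 22, led by Sfrp5, Igfbp6, Lypd2, Cldn1 and Thbs4, had 11 to 147 cells per mesentery library and 1 to 4 per adipose library, and carried 1069 of the 1072 Slc2a1 UMIs of the mesentery class, at 852.6 to 1601.2 CPM. Cluster 15, led by Lum, Clec3b, Col3a1 and Col1a1, had 0 to 4 UMIs of Slc2a1 in each library of either tissue. Of 8 fibroblast markers, cluster 22 had 5 raised (mean log2 fold 1.72) and cluster 15 had 8 (5.39). The name fibroblast-like is thus less certain for cluster 22. The 135.6 CPM of adipose on chow B came from 2 cells of cluster 22. The sort was for YFP, so these cells are not a sample of the tissue's fibroblasts.

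Proliferating-like cells were numerous enough in 3 libraries of run B, with 52 to 115 cells each, but the class is mixed: of its 262 cells, 121 fell into macrophage-like clusters at a higher clustering resolution. Gapdh in the mixed class was at 711.4, 972.2 and 1113.7 CPM there (adipose on chow B, mesentery on high fat diet B, adipose on high fat diet B), above the 388.1 to 500.5 CPM of all endothelial cells of run B. Pgk1 was at 130.2, 161.3 and 188.3 CPM, above the 57.6 to 70.6 CPM of all endothelial cells of that run. In the 26 to 48 cells per library that were proliferating-like and endothelial at both resolutions, Gapdh was at 627.5, 815.9 and 605.9 CPM and Pgk1 at 110.2, 95.2 and 109.7 CPM in the same order. These are values with no test.

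Slc2a4 was also found in cells with endothelial markers and markers of another cell type, where adipose on chow B had 155 UMIs beside 98447 adipocyte marker UMIs and mesentery on high fat diet B had 58 beside 366. Cluster 10, led by genes of mural cells, had 27.6 to 58.0 CPM in 4 libraries of run B.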
